A study of Mus musculus with 4 samples.

Results

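Alcohol dehydrogenases (ADH) oxidise alcohols and diols to aldehydes or ketones, and aldehyde dehydrogenases (ALDH) oxidise aldehydes to acids, in both cases by passing electrons to NAD or NADP. The genes described are 3 alcohol dehydrogenases (Adh1, Adh5 and Adh7) and 7 aldehyde dehydrogenases (Aldh2, Aldh1b1, Aldh1l2, Aldh3a1, Aldh3a2, Aldh7a1 and Aldh9a1), chosen by enzyme class and found by symbol. The dehydrogenases that make retinoic acid from retinal were left out of the family. All 10 are protein coding and were found among the 55536 rows of the deposited table. Expression was measured by RNA sequencing of the stromal vascular fraction, which is the tissue left after mature fat cells are removed, from inguinal white fat of wild-type male mice at postnatal day 21. The 4 libraries, each from 3 pooled mice, crossed 2 offspring groups, LnF1 and ObF1, in a series on obesity of the parents, with 2 drinks, water and 1,3BD. No combination had a second library, so p-values do not rest on a spread between animals of 1 group. They rest on whether a difference repeated in the other parental group or drink, and on the spread of other genes. With so few libraries, the fit moves the error of each gene toward that of genes at like levels. A small p therefore does not by itself show that the gene's own difference repeated closely.

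The liver is the main site of alcohol oxidation, but many members have housekeeping roles in other tissues. The alcohol dehydrogenases act in the cytosol, Aldh2, Aldh1b1 and Aldh1l2 encode mitochondrial enzymes, and the enzyme of Aldh3a2 sits in the membrane of the endoplasmic reticulum. The labels do not spell out 1,3BD. In work on ketone bodies this abbreviation usually stands for a butanediol, a diol that enzymes of the alcohol and aldehyde dehydrogenase classes convert to beta-hydroxybutyrate, mostly in liver.

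Values are scaled CPM, in which the reads of a gene are set against the total of its library (as in plain CPM) and divided by the authors' scaling factor for that library. The reads recovered from the table ranged from 24586827 to 26000090 per library, so 1 read was worth 0.0359 to 0.0434 CPM. A gene was tested with limma where 2 or more libraries reached 1 CPM (12838 genes), in a fit with a term for drink and a term for parents, and adjusted p is Benjamini-Hochberg over all genes tested, with a threshold of 0.05. Of 10 fibroblast and adipose progenitor markers none was at 0 reads in all libraries. The same held for the markers of endothelium, mural cells and myofibroblasts, glia and skeletal muscle. Epcam, Krt5 and Krt8 of epithelium, Cd3e of T cells and Adipoq and Lep of mature fat cells had 0 reads throughout. Fabp4 and Plin1, the mature fat cell markers that could be tested, were found and were higher with 1,3BD. The 6 epithelial markers summed to at most 0.304 CPM in a library and the 6 white blood cell markers to at most 2.81 CPM.

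Most of the family was lower with 1,3BD. Of the 9 members tested, 6 were lower with 1,3BD (Adh1, Adh7, Aldh2, Aldh1b1, Aldh3a2 and Aldh7a1), 1 was higher (Aldh1l2), and Adh5 and Aldh9a1 did not pass. Among all genes tested, 24.8% were lower and 19.2% were higher with 1,3BD. The median log2 difference was -0.68 over the 9 members and -0.06 over all genes tested. Aldh3a1 did not reach the level required for a test, and the other 9 members each had at least 1 CPM in 3 or 4 libraries. Adh1 and Aldh1b1 reached 1 CPM in both water libraries but in only 1 of the 1,3BD libraries, so their water libraries alone met the requirement. For 5 members (Adh7, Aldh2, Aldh1b1, Aldh3a2 and Aldh7a1) both 1,3BD libraries lay below both water libraries, as they did for 38.2% of all genes tested. No tested member had both 1,3BD libraries above both water libraries, against 33.8% of all genes tested. These comparisons use the authors' factors. On library totals the drinks would overlap for Aldh2, while Aldh1l2 and Aldh9a1 would have both 1,3BD libraries above both water libraries.

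The number of lower members differed between settings. With library totals in place of the authors' factors, which shifted the median log2 difference of all genes by 0.25 toward 1,3BD, 3 members were lower (Adh1, Aldh1b1 and Aldh7a1) and 1 was higher, and the calls over all genes changed from 2466 higher and 3189 lower to 3663 higher and 2283 lower. Without the parental term, and with all 4 libraries, 4 were lower and 0 higher. When a single library was omitted as well, since 3 libraries leave no degree of freedom for both terms, the fit called 1 member lower without LnF1 water, 4 without LnF1 1,3BD, 3 without ObF1 water and 2 without ObF1 1,3BD, and 0 higher in each.

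The cell markers moved with the drink as well. The 5 markers of mural cells and myofibroblasts summed to 7910 CPM with water and 181 CPM with 1,3BD in LnF1, and to 8376 and 201 CPM in ObF1. Acta2 made up most of each sum, at 7692 and 113 CPM in LnF1 and 8097 and 165 CPM in ObF1. Of the 5 markers 4 were lower. Notch3 did not pass, at 70.3 and 61.5 CPM in LnF1 and 51.7 and 24.5 CPM in ObF1. The 10 fibroblast and progenitor markers summed to 31003 CPM with water and 9375 CPM with 1,3BD in LnF1, and to 35550 and 7412 CPM in ObF1, with 4 of 8 tested lower and with Col1a1 and Col1a2 making up most of each sum. The 5 adipocyte markers summed to 6.03 CPM with water and 228 CPM with 1,3BD in LnF1, and to 8.56 and 153 CPM in ObF1, nearly all of it Fabp4. Both of the 2 tested, Fabp4 (log2 4.68) and Plin1 (log2 4.47), were higher with 1,3BD. The 4 endothelial markers were low throughout, at 4.67 and 0.717 CPM in LnF1 and 12.9 and 2.44 CPM in ObF1. The 3 skeletal muscle markers summed to 86.5 and 1.83 CPM in LnF1 and to 61.9 and 1.87 CPM in ObF1, nearly all of it Acta1, which was lower (log2 -5.24), and the 3 glial markers to 5.52 and 2.22 CPM and to 10.3 and 1.31 CPM, with S100b lower. Their part in the differences of the family was not tested, and in a bulk sample fewer cells of a type and less RNA per cell cannot be told apart.

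**Figure D1:**
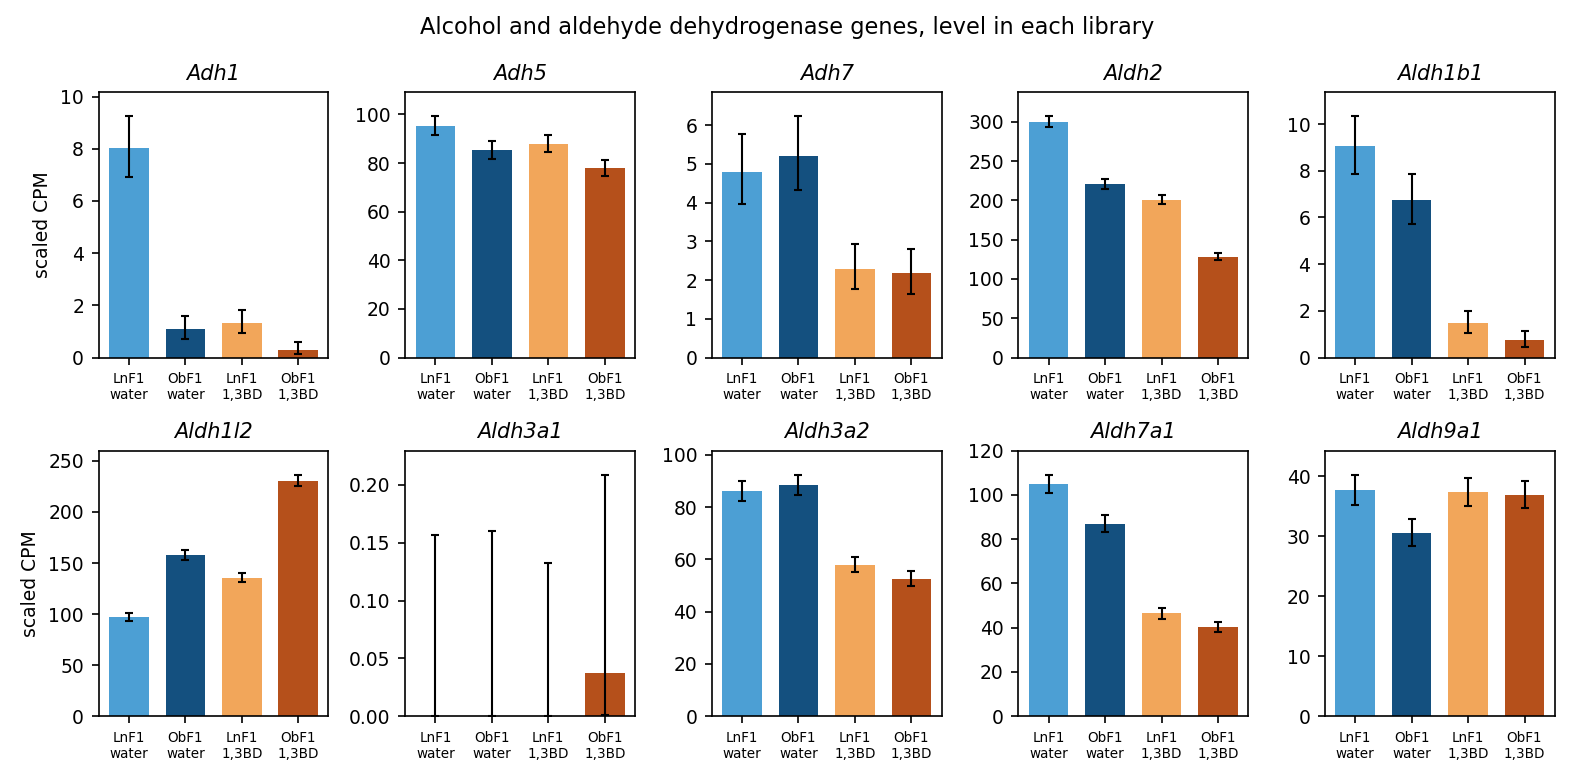
Level of each of the 10 genes in scaled CPM (vertical axis from 0, a separate scale for each gene) in the 4 libraries (horizontal axis); bars are single libraries and error bars are exact 95% Poisson intervals that cover counting error only. Both 1,3BD bars lie below both water bars for Adh7, Aldh2, Aldh1b1, Aldh3a2 and Aldh7a1, and Aldh1l2 is highest in ObF1 1,3BD at 231 CPM.

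The 3 alcohol dehydrogenase genes lie on the plus strand of 1 cluster on chromosome 3 (mm10), within 238 kb from the start of Adh7 (138217760) to the end of Adh5 (138455499), with Adh1 between them (138260991 to 138290698). They differed widely in level. Adh5, which encodes the glutathione-dependent formaldehyde dehydrogenase that all tissues carry, stood at 14.4 to 17.6 CPM per kilobase of exon over the 4 libraries. It made up 78.4% to 95.3% of the level per kilobase summed over the 3 genes, in LnF1 water and ObF1 1,3BD respectively. Of the genes between Adh1 and Adh5, Adh6a and Adh6b had 0 reads in all libraries, and Adh4, a liver enzyme, was at 0.0869 CPM in ObF1 water and at 0 reads elsewhere.

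The sequences before the starts of these 3 genes are shown because the genes belong to 1 cluster, in which Adh5 stayed between 77.8 and 95.2 CPM while Adh1 and Adh7 were low and were called lower with 1,3BD. Each is the 250 bases before a RefSeq start on GRCm38.p6, plus strand, and capitals mark matches on either strand to 5 motifs. These are the TATA box with the letters TATAAA, the box named for its letters CCAAT, the GC box with the letters GGGCGG, the core of the antioxidant response element with the letters TGACNNNGC, and a piece of the element bound by the glucocorticoid receptor with the letters AGAACA.
Adh7, chr3:138217523-138217772: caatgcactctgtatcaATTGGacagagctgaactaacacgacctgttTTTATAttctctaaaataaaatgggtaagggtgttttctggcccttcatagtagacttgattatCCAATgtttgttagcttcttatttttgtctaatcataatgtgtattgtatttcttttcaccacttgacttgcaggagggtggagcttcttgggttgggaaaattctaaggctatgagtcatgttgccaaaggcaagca
Adh1, chr3:138277335-138277584: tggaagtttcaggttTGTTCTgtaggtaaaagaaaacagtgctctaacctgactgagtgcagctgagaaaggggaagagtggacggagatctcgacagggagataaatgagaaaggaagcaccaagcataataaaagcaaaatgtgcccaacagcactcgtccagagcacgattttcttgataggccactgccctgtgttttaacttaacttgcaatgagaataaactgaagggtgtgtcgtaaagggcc
Adh5, chr3:138442843-138443092: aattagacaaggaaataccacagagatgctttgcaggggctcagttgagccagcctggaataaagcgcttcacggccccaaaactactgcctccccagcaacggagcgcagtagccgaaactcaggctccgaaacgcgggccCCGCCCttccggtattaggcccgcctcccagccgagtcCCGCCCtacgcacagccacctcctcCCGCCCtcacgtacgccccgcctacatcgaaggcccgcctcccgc

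The windows differed in base composition. The Adh5 window was 63.6% G and C with 21 CpG dinucleotides, against 38% and 1 for Adh7 and 44.8% and 5 for Adh1. Over 32851 promoter windows of this length the median was 52.4% and 6. Adh5 held 3 matches to GGGCGG, a motif in 32.7% of all windows. Adh7 held 2 matches to CCAAT (33.8% of windows) and 1 to TATAAA (12.4%), and Adh1 held 1 match to AGAACA (16.1%). No match to TGACNNNGC, found in 10.2% of windows, lay in these 3 windows. No matches overlapped. Adh5 has a further RefSeq start upstream, whose window (138436950 to 138437199) is not shown and held 1 match to TATAAA. A promoter sequence was matched by symbol for 6 of the 10 genes, so nothing was computed over the family. The longest Adh1 model in the annotation starts before the RefSeq start used here.

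Adh1 encodes the class I enzyme, which oxidises ethanol and retinol. It stood at 8.02 CPM in LnF1 water, 1.33 in LnF1 1,3BD, 1.09 in ObF1 water and 0.300 in ObF1 1,3BD, from 189, 37, 25 and 8 reads. LnF1 water alone was high, and the drinks overlapped, since LnF1 1,3BD lay above ObF1 water. Within each parental group Adh1 was lower with 1,3BD, 6.05-fold in LnF1 and 3.62-fold in ObF1, and it was called lower (log2 -2.07, SE 0.45, adjusted p = 0.00372 in limma). This call ended in the fit without LnF1 water, with a log2 difference of -0.67 (limma adjusted p = 0.616), in the fit without LnF1 1,3BD (-3.02, limma adjusted p = 0.181) and without ObF1 1,3BD (-1.13, limma adjusted p = 0.631). It also ended without the parental term (limma adjusted p = 0.156). Of the 10 fibroblast and progenitor markers, Dcn, Lum and Pi16 were also highest in LnF1 water, Dcn at 328 CPM against 63.9 to 81.1 in the other libraries, Lum at 6.54 against 0.0750 to 0.695 and Pi16 at 2.08 against 0.487 to 1.04. The other 7 were not, with Col1a1, Col1a2, Pdgfrb, Thy1 and Dpp4 highest in ObF1 water and Pdgfra and Cd34 in ObF1 1,3BD. Their part in the Adh1 level was not tested.

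Adh7 encodes the class IV enzyme, best known from stomach and other epithelia. In LnF1 it went from 4.80 CPM with water to 2.30 with 1,3BD, and in ObF1 from 5.21 to 2.17, on 58 to 120 reads. The 2 drinks did not overlap, and within each drink the 2 parental groups lay inside each other's counting intervals. Adh7 was lower with 1,3BD (log2 -1.13, SE 0.35, adjusted p = 0.0218 in limma), a call that ended with library totals (limma adjusted p = 0.0573), with DESeq2 (DESeq2 adjusted p = 0.0755) and in each of the 4 fits that left out a library (limma adjusted p from 0.0551 to 0.158).

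Adh5 stood at 95.2 CPM with water and 87.9 with 1,3BD in LnF1, and at 85.2 and 77.8 CPM in ObF1. No difference with the drink was called, and the drinks overlapped. Its log2 difference was -0.12 (95% interval -0.55 to 0.30, limma adjusted p = 0.629), and it turned to 0.13 with library totals.

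Aldh2 was the most abundant member per kilobase of exon in 3 of the 4 libraries. It encodes the mitochondrial enzyme that clears acetaldehyde and aldehydes from lipid peroxidation (chromosome 5, 121566027 to 121593824, minus strand). The levels were 300 CPM in LnF1 water, 201 in LnF1 1,3BD, 221 in ObF1 water and 128 in ObF1 1,3BD. LnF1 water was highest and ObF1 1,3BD lowest, with both 1,3BD libraries below both water libraries on the authors' factors. On library totals LnF1 1,3BD would lie above ObF1 water, with 5607 reads of 24586827 against 5089 of 26000090. Aldh2 was lower with 1,3BD (log2 -0.68, SE 0.19, adjusted p = 0.0151 in limma), 1.49-fold in LnF1 and 1.73-fold in ObF1. The call ended with library totals (-0.43, limma adjusted p = 0.0904), without the parental term (limma adjusted p = 0.0881) and in the fits without LnF1 water (-0.46, limma adjusted p = 0.403), ObF1 water (-0.90, limma adjusted p = 0.111) or ObF1 1,3BD (-0.36, limma adjusted p = 0.385).

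Aldh1b1 encodes a mitochondrial enzyme closely related to that of Aldh2, known from intestinal and other stem cells (chromosome 4, 45799022 to 45804604, plus strand). It had the largest drink difference of the 9 tested members. The level was 9.04 CPM in LnF1 water and 6.73 in ObF1 water, against 1.47 and 0.750 CPM with 1,3BD, from 213, 155, 41 and 20 reads. The drinks did not overlap, nor did their counting intervals, which reached down to 5.72 CPM with water and up to 1.99 CPM with 1,3BD. Aldh1b1 was lower with 1,3BD (log2 -2.80, SE 0.37, adjusted p = 0.000165 in limma), 6.15-fold in LnF1 and 8.98-fold in ObF1. With any 1 library omitted its log2 difference lay between -3.25 and -2.35 and passed each time. None of the 50-base words of its annotated transcripts occurs in another gene's transcripts, so its reads and those of Aldh2 could be told apart at that length.

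The 250 bases before the RefSeq start of Aldh1b1 are shown because this gene had the largest difference. It starts on the plus strand of chromosome 4 (GRCm38.p6), and capitals mark matches to the same 5 motifs.
Aldh1b1, chr4:45798772-45799021: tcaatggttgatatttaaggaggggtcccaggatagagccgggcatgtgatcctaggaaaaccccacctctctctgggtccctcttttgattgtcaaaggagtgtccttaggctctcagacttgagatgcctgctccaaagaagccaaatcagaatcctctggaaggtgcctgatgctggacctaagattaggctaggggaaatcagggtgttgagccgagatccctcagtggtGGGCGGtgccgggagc
This window held 1 match to GGGCGG, which begins 16 bases before the start, and none to the other 4 motifs. Its G and C content was 53.2% with 4 CpG dinucleotides.

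Aldh1l2 was the exception to the direction of the family. It encodes the mitochondrial 10-formyltetrahydrofolate dehydrogenase, which releases carbon dioxide from a folate-bound formyl group and makes NADPH (chromosome 10, 83487450 to 83534140, minus strand). It stood at 96.8 CPM in LnF1 water, 135 in LnF1 1,3BD, 158 in ObF1 water and 231 in ObF1 1,3BD. On the authors' factors the drinks overlapped, because ObF1 water lay above LnF1 1,3BD. On library totals they would not, with 3630 reads of 26000090 in ObF1 water against 3775 of 24586827 in LnF1 1,3BD. Within each parental group 1,3BD was higher, 1.40-fold in LnF1 and 1.46-fold in ObF1. Aldh1l2 was called higher with 1,3BD (log2 0.52, SE 0.19, adjusted p = 0.0461 in limma). This call stood near the threshold and ended with a pseudocount of 1 CPM (limma adjusted p = 0.0520), without the filter (limma adjusted p = 0.0542), with DESeq2 (DESeq2 adjusted p = 0.0537), without the parental term (limma adjusted p = 0.246) and in each fit that left out a library, where the log2 difference ranged from 0.13 to 0.90.

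Some reads counted for Aldh1l2 could belong to its neighbour. D10Wsu102e runs on the opposite strand and shares 1056 of the 7503 exon bases of Aldh1l2, and the use of strand in counting is not given in the sources used here. D10Wsu102e stood at 49.3 CPM with water and 72.9 with 1,3BD in LnF1, and at 52.1 and 70.9 CPM in ObF1. Its log2 difference with 1,3BD was 0.50 with an SE of 0.20 and did not pass (limma adjusted p = 0.0620), against 0.52 for Aldh1l2. Between parents it was 0.02, against 0.74 for Aldh1l2. The part of the shared bases in the Aldh1l2 values was not tested.

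Aldh3a2 and Aldh3a1 are neighbours on chromosome 11, 4.995 kb apart end to end and on opposite strands (Aldh3a1 from 61207537 to 61218421, plus strand; Aldh3a2 from 61223417 to 61267464, minus strand). Aldh3a2 encodes the fatty aldehyde dehydrogenase that handles long-chain aldehydes from sphingolipids and phytol, and its loss causes Sjögren-Larsson syndrome. It stood at 86.2 CPM with water and 57.9 with 1,3BD in LnF1, and at 88.5 and 52.6 CPM in ObF1. The drinks did not overlap, and the parental groups lay close together within each drink. Aldh3a2 was lower with 1,3BD (log2 -0.66, SE 0.20, adjusted p = 0.0197 in limma), 1.49-fold in LnF1 and 1.68-fold in ObF1, a call that ended with library totals (-0.41, limma adjusted p = 0.114) and in the fits without LnF1 water (limma adjusted p = 0.164), ObF1 water (limma adjusted p = 0.164) or ObF1 1,3BD (limma adjusted p = 0.0959). Aldh3a1, an enzyme known for its abundance in cornea, had 0 reads in 3 libraries and 1 read (0.0375 CPM) in ObF1 1,3BD. A count of 0 allows up to 0.127 CPM in LnF1 water, 0.108 in LnF1 1,3BD and 0.130 in ObF1 water.

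Aldh7a1 encodes antiquitin, which oxidises an aldehyde of lysine breakdown and betaine aldehyde, and whose loss causes pyridoxine-dependent epilepsy (chromosome 18, 56509687 to 56572951, minus strand). The levels were 105 CPM in LnF1 water and 87.0 in ObF1 water, against 46.5 and 40.3 CPM with 1,3BD. Both 1,3BD libraries lay far below both water libraries, and the difference was of like size in LnF1 (2.26-fold) and ObF1 (2.16-fold). Aldh7a1 was lower with 1,3BD (log2 -1.14, SE 0.20, adjusted p = 0.00104 in limma) and was one of the 3 members that were also lower with library totals. The call ended in the fit without LnF1 water (-1.01, limma adjusted p = 0.0616). Phax, on the opposite strand, shares 300 of its 5181 exon bases and stood at 35.7 CPM with water and 34.3 with 1,3BD in LnF1, and at 37.4 and 59.2 CPM in ObF1. Phax thus was highest in ObF1 1,3BD, where Aldh7a1 was lowest. Its part in the Aldh7a1 values was not tested.

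Aldh9a1 encodes an enzyme that acts on aminoaldehydes in the synthesis of carnitine and of GABA (chromosome 1, 167349991 to 167368532, plus strand). It stood at 37.7 CPM with water and 37.4 with 1,3BD in LnF1, and at 30.5 and 36.9 CPM in ObF1. Its drink difference did not pass (log2 0.13, 95% interval -0.35 to 0.61, limma adjusted p = 0.653). ObF1 water was the lowest library and the other 3 lay within 1 CPM of each other.

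**Figure D2:**
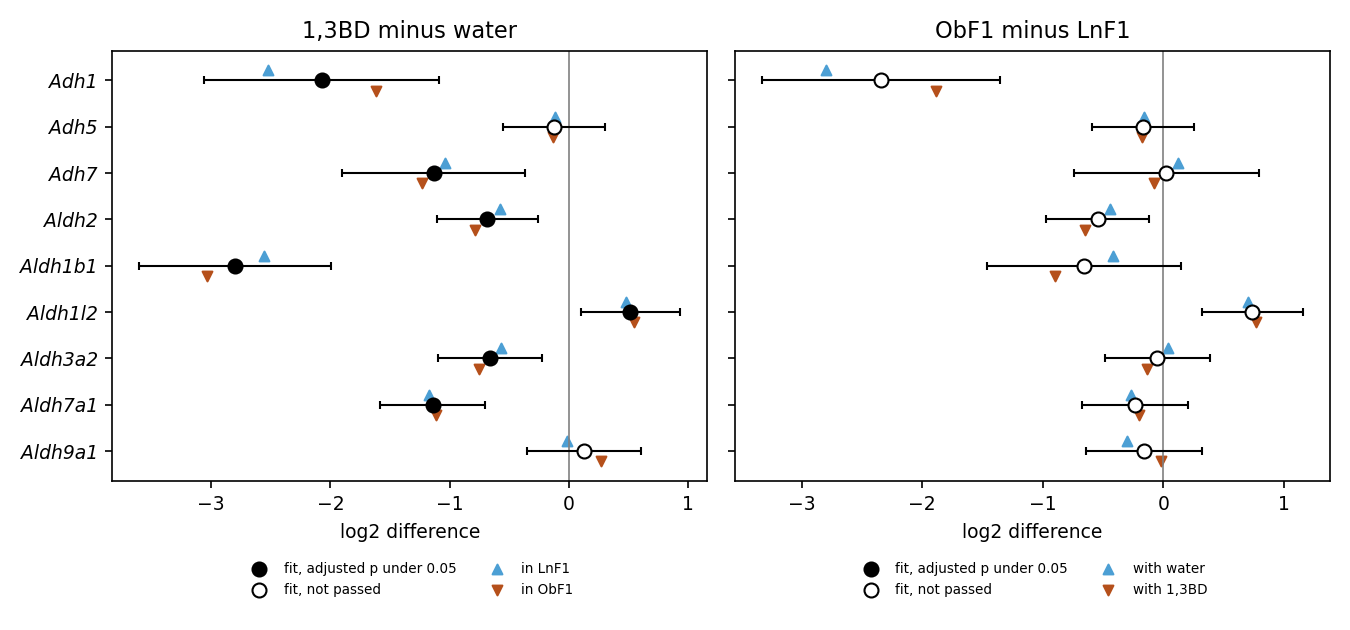
Log2 differences of the 9 tested genes for 1,3BD minus water (left) and ObF1 minus LnF1 (right); circles are the limma fit with its 95% interval, filled where the adjusted p is under 0.05, and triangles are the 2 single-library differences behind it. Filled circles stand left of 0 for 6 genes and right of 0 for Aldh1l2 with 1,3BD, and no circle is filled for parents.

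For the parents, no member passed. Of 9 members tested with limma 0 were higher and 0 lower in ObF1, where 0.195% of all genes tested were higher and 0.101% lower, and 3 members had an unadjusted p under 0.05 (Adh1, Aldh2 and Aldh1l2), as did 10.8% of all genes tested. The edgeR count test called 0 members as well, and DESeq2 called 1 lower. With the authors' factors, the 2 ObF1 libraries lay above both LnF1 libraries for 1 member (Aldh1l2), against 8.44% of all genes tested. They lay below both for 3 (Adh1, Adh5 and Aldh9a1), against 8.02%.

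Adh1 had the largest parental difference of the family. It was 7.39-fold lower in ObF1 with water and 4.42-fold lower with 1,3BD, a difference of -2.34 on the log2 scale, SE 0.45, that missed the threshold (limma adjusted p = 0.0668) and passed with DESeq2 (DESeq2 adjusted p = 0.0153) and without the filter (limma adjusted p = 0.000205). It passed under none of the other alternatives. The ObF1 values rest on 25 and 8 reads. Aldh1l2 was 1.63-fold higher in ObF1 with water and 1.70-fold with 1,3BD. The log2 difference, 0.74 with an SE of 0.19, did not pass (limma adjusted p = 0.173). Among the alternatives it passed only without the filter (limma adjusted p = 0.0404). Without the filter, limma calls for parents over all genes went from 25 higher and 13 lower to 196 and 156. Passes of Adh1 and Aldh1l2 in that setting are therefore weak. Aldh2 was 1.36-fold lower in ObF1 with water and 1.57-fold lower with 1,3BD, and its log2 value of -0.55 (SE 0.19) did not pass (limma adjusted p = 0.332). For Aldh1b1 the log2 difference between parents was -0.66 (95% interval -1.47 to 0.14), for Aldh7a1 -0.24 (-0.68 to 0.20), for Adh5 -0.17 (-0.59 to 0.26) and for Aldh9a1 -0.16 (-0.64 to 0.32). It was 0.02 for Adh7 (-0.75 to 0.79) and -0.05 for Aldh3a2 (-0.49 to 0.39). All 6 intervals included 0.

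Which gene led the family differed between the libraries. Per kilobase of exon, Aldh2 stood at 58.6 CPM and Aldh1l2 at 12.9 in LnF1 water, a ratio of 4.54. The ratio was 2.17 in LnF1 1,3BD and 2.05 in ObF1 water. In ObF1 1,3BD it was 0.812, with Aldh2 at 24.99 and Aldh1l2 at 30.8 CPM per kilobase. Aldh2 thus led in 3 libraries and Aldh1l2 in the fourth. With 1 library per combination this order has no spread over animals.

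The level summed over the 10 genes was lower with 1,3BD in both parental groups. It was 145 CPM per kilobase with water and 106 with 1,3BD in LnF1, and 126 and 99.2 in ObF1. These sums use the authors' factors, which were larger for 1,3BD (1.13 and 1.05) than for water (0.950 and 0.885). On library totals the drinks would differ less, and LnF1 1,3BD would lie above ObF1 water. Aldh2 made up 40.5% of the sum in LnF1 water, 37.1% in LnF1 1,3BD, 34.2% in ObF1 water and 25.2% in ObF1 1,3BD. Aldh1l2 made up 8.92%, 17.1%, 16.6% and 31.0% in the same order. The order below these 2 also differed. Aldh7a1 ranked second in LnF1 water at 20.3 CPM per kilobase, above Adh5 (17.6) and Aldh3a2 (15.3). With 1,3BD it ranked sixth, below Adh5, Aldh9a1 and Aldh3a2, at 8.97 in LnF1 and 7.77 in ObF1. Adh1, Adh7 and Aldh1b1 each stayed at or under 3.93 CPM per kilobase in every library.

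**Figure D3:**
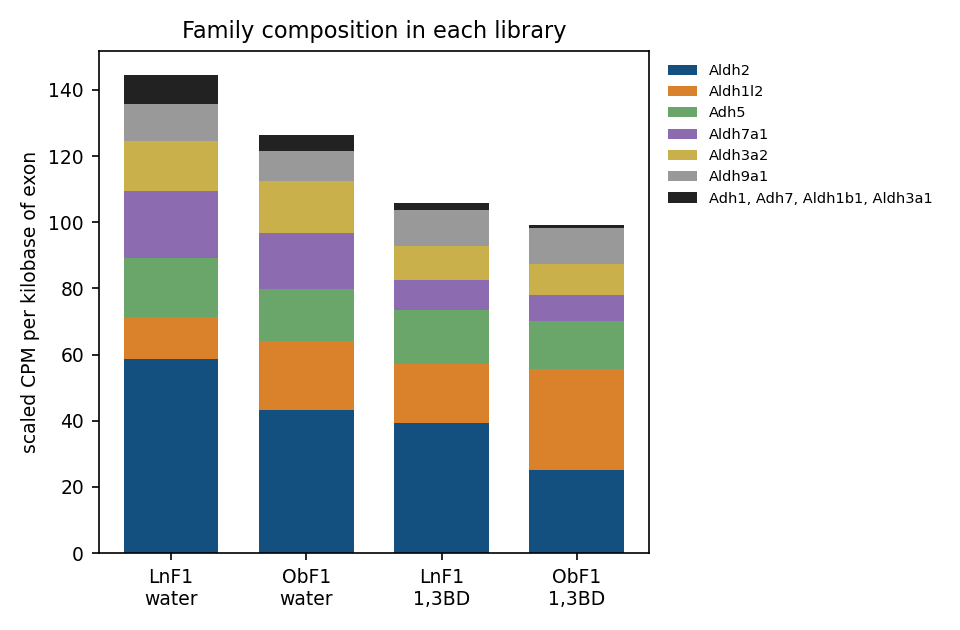
Level per kilobase of exon (vertical axis, scaled CPM per kilobase, from 0) stacked over the 10 genes in each of the 4 libraries. With the authors' factors the total is lower in both 1,3BD libraries. The Aldh1l2 segment exceeds the Aldh2 segment in ObF1 1,3BD, with a ratio of Aldh2 to Aldh1l2 of 0.812.

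Other aldehyde dehydrogenases outside the family were also lower in most cases. For this and the lists below, the share among all genes tested was 24.8% lower and 19.2% higher with 1,3BD. The lists are short and were not tested as sets. Of 9 listed, 7 were tested, with 5 lower and 1 higher with 1,3BD. The 5 became 2 without LnF1 water and 3 without ObF1 water or ObF1 1,3BD. Aldh1l1, the cytosolic counterpart of Aldh1l2, was lower (19.0 and 20.4 CPM with water against 3.73 and 3.04 with 1,3BD, log2 -2.52, limma adjusted p = 5.32e-05). The 2 formyltetrahydrofolate dehydrogenases thus differed in direction within each parental group. The Aldh1l2 side of this contrast is weak, since its call stood near the threshold (limma adjusted p = 0.0461). It ended with DESeq2 (DESeq2 adjusted p = 0.0537), without the parental term and under other alternatives. Aldh16a1 (-2.02), Aldh3b1 (-1.30), Aldh18a1 of proline synthesis (-1.15) and Aldh4a1 of proline breakdown (-0.97) fell too, and Aldh6a1 of valine breakdown rose (1.39). Of the other alcohol dehydrogenase genes only Adhfe1, which oxidises gamma-hydroxybutyrate, was tested. It rose (log2 1.07, limma adjusted p = 0.0256), though not with DESeq2 or in any of the 4 fits that left out a library. Of the 4 retinal dehydrogenases 2 were lower, 1 higher and 1 did not pass. Aldh1a2 stood at 22.9 CPM with water and 0.681 with 1,3BD in LnF1 and at 101.8 and 3.49 CPM in ObF1, the 1 gene of all lists that passed for parents (log2 2.19, limma adjusted p = 0.00490). That call ended with a pseudocount of 1 CPM, without the drink term and in each of the 4 fits that left out a library. Aldh1a3 stood at 14.0 CPM with water and 0.502 with 1,3BD in LnF1, and at 17.3 and 0.150 CPM in ObF1. Aldh1a7 was higher with 1,3BD (log2 1.53, limma adjusted p = 0.00398), and Aldh1a1 did not pass (-0.42).

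Enzymes that take up the same substrates by other routes moved in both directions, as did all genes tested (24.8% lower and 19.2% higher with 1,3BD). Of 10 aldo-keto and carbonyl reductase genes tested, which reduce aldehydes back to alcohols, 4 were lower and 0 higher with 1,3BD, namely Akr1a1 (log2 -1.32), Akr1b3 (-1.17), Akr1b8 (-0.84) and Akr7a5 (-0.86). With library totals 3 were lower and 2 higher, and 1 was lower without LnF1 water and 2 without ObF1 water. Catalase (Cat, 1.70), the aldehyde oxidase gene Aox1 (1.11) and the xanthine oxidoreductase gene Xdh (2.94), the 3 tested of a list of other oxidising enzymes, all rose, and 2 of them without ObF1 water. Beside Adh5 in formaldehyde clearance, Esd, which acts on the product of Adh5, rose (log2 0.86), and the glutathione genes Gclc (4.36), Gclm (1.94) and Gsr rose while Gss did not pass, and without LnF1 water 2 of the 5 rose. Glutathione transferase genes were split, with 2 of 7 higher (Gstm1 and Gsta3) and 4 lower (Gstt1, Gstm2, Gstp1 and Gstp2), and 2 higher and 2 lower with library totals. In the fits that left out a library, 1 or 2 were higher and 1 or 2 lower. Members of this transferase family share similar sequences and are uncertain.

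The pathways around single members moved in both directions or did not pass. Their counts stand beside 24.8% lower and 19.2% higher among all genes tested. Around Aldh1l2, 2 of 11 folate genes rose, Slc25a32, the mitochondrial folate carrier (1.21), and Sfxn1, a serine carrier (0.69), and 4 fell, among them Shmt2 (-1.07), Mthfd1 (-0.83) and Mthfd2 (-0.69). With library totals 2 rose and 2 fell, and Mthfd2 did not pass. Without LnF1 water, ObF1 water or ObF1 1,3BD 1 rose and 1 fell. Around Aldh7a1, 0 of 4 lysine breakdown genes passed in limma, edgeR or DESeq2, and 1 was higher with library totals and without LnF1 1,3BD. Around Aldh9a1, Tmlhe, the first enzyme of carnitine synthesis, rose (0.69), though in none of the 4 fits that left out a library, and the carnitine transporter gene Slc22a5 did not pass. Around Aldh3a2, Sgpl1, the sphingosine phosphate lyase that makes its substrate, fell (-0.71, but limma adjusted p = 0.104 with library totals), and Far1, a fatty acyl reductase, rose (0.86), with 6 of 8 not passed; with library totals 4 were higher and 0 lower, and 0 passed without LnF1 water or without ObF1 water. Downstream of acetaldehyde, the acetate-activating gene Acss2 rose (1.05). Acss3, a related acyl-CoA synthetase gene, rose too (3.29). The beta-hydroxybutyrate dehydrogenase gene Bdh1 fell (-0.95, but not with library totals or DESeq2), as did Bdh2 (-1.61). In this list 0 fell without LnF1 water, ObF1 water or ObF1 1,3BD, and 1 rose without ObF1 water or ObF1 1,3BD.

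**Figure D4:**
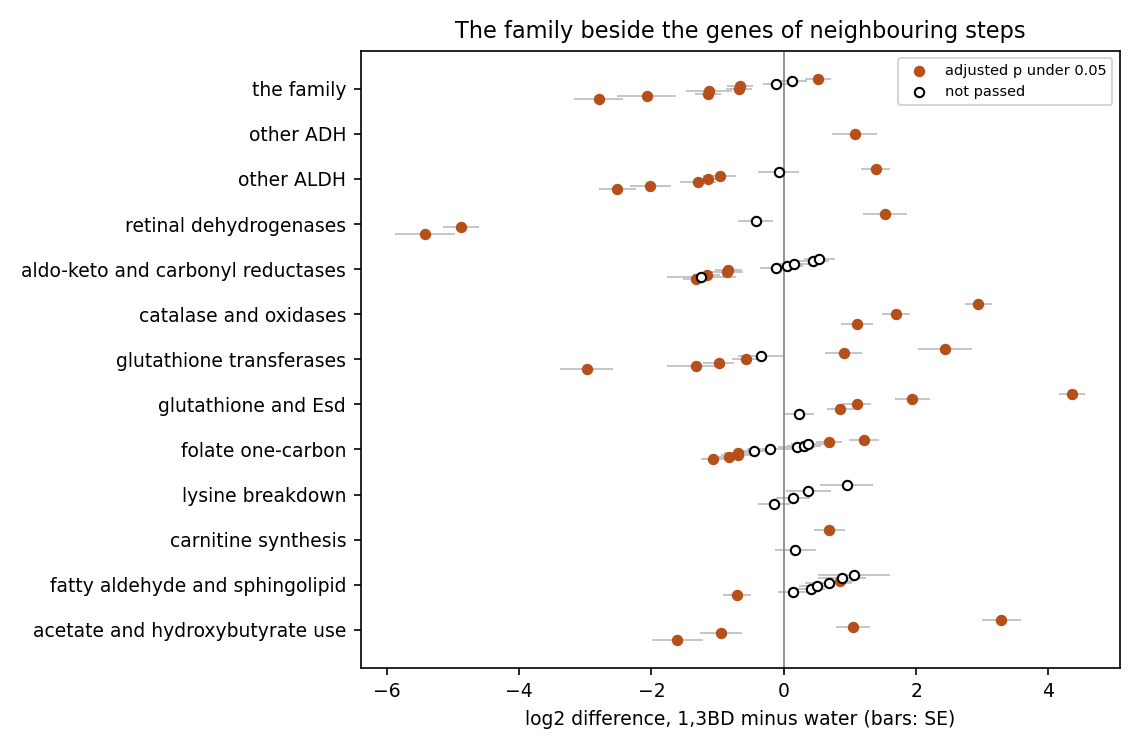
Log2 difference with 1,3BD (horizontal axis, bars are SE) for the tested genes of the family and of 12 lists of neighbouring steps (rows); filled circles have an adjusted p under 0.05 in limma. The family lies mostly left of 0, while all 3 genes of catalase and the oxidases lie right of it.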

How the data were processed

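RNA was sequenced in 4 libraries, 1 per combination of parents and drink. Per the labels' protocols, RNA came from TRIzol extraction and libraries from the KAPA mRNA HyperPrep chemistry. The submitters' processing notes list mm10, edgeR and DESeq2, without roles; the aligner, counter, annotation and strand setting were not given in the sources used here. The deposited values are a scaled signal per gene: 100% were whole multiples of the smallest value in their column (relative tolerance 1e-06), which gave the reads and, from the column totals, the authors' scaling factors of 0.950 and 1.13 for LnF1 and 0.885 and 1.05 for ObF1 (water, then 1,3BD). Columns that name no drink were taken as water.

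The fit was limma 3.58.1 on log2(CPM + 0.0796), where the pseudocount equals 2 reads, using trend and robust moderation, additive in drink and parents, with 1 residual degree of freedom. It understates fold changes of low genes. Fold values given for LnF1 and ObF1 are CPM ratios of single libraries, without p. edgeR 4.0.16 and DESeq2 1.42.0 on recovered reads, other pseudocounts, filters, scalings, moderation and covariates, and leaving out each library were alternatives. The script was tested on simulated data. Drink or parents alone changed genes there, and no drink difference was set to vary between parental groups. That test does not show how the p-values behave in these data. Coordinates, exon lengths and overlaps are from GENCODE M21 (GRCm38, the assembly of mm10), and promoters from RefSeq. Counting intervals are exact Poisson, and they and the limits of a 0 count (3 reads) cover counting error only.

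The members and lists were chosen with earlier results of these data known. The rule named all members and, per list, up to 4 genes in each direction that passed for drink at a mean CPM of at least 5, ranked by the smaller single-library difference, plus any that passed for parents. Genes outside it (Aldh4a1, Adhfe1, Aldh1a1, Aldh1a7, Gsta3, Gstp2, Gss, Slc22a5 and Bdh2) were named after their values were seen. One gene that the rule names is not reported here.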

Additional observations from a re-analysis of the deposited data

Results flagged for a closer look

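In 3 genes the 2 single-library differences had opposite signs, and the difference between them was not tested. For Adh7 the log2 difference of ObF1 minus LnF1 was 0.12 with water and -0.075 with 1,3BD. For Aldh3a2 it was 0.039 with water and -0.14 with 1,3BD. The log2 difference of Aldh9a1 for 1,3BD minus water was -0.014 in LnF1 and 0.27 in ObF1.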

How the results depend on the processing

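The count of 1 member higher with 1,3BD became 0 with a pseudocount of 1 CPM, without the filter, with DESeq2, without the parental term and without any 1 library (0 to 0). The count of 6 lower became 3 at a mean CPM of at least 5, where Adh1, Adh7 and Aldh1b1 are not tested, 3 with library totals, and 1 to 4 without 1 library. Over all genes, calls with 1,3BD without 1 library ran from 668 to 1926 higher and 1232 to 2731 lower. For parents, 1 member was higher and 1 lower without the filter, and 1 was lower with DESeq2; without 1 library 0 were called. Over all genes the 25 higher for parents became 8 with a pseudocount of 1 CPM, 196 without the filter, 10 at a mean CPM of at least 5, 16 with library totals, 69 with DESeq2, 0 without the drink term and 0 without 1 library, and the 13 lower became 5, 156, 5, 13, 48, 0 and 0 to 2 in the same order. With library totals the drink difference of Adh5 turned to 0.13 and the parental difference of Adh7 to -0.083. Without 1 library the parental difference ran from -0.59 to 0.64 for Adh7, -2.18 to 0.86 for Aldh1b1, -0.43 to 0.33 for Aldh3a2 and -0.83 to 0.35 for Aldh7a1, and the drink difference of Aldh9a1 from -0.022 to 0.28; these fits hold fewer samples and no second term, and otherwise the cause was not tested. No paired analysis was possible because each combination has 1 library without a replicate number. Depth left Aldh3a1, with 1 read in all, untested, and Adh1 rests on 8 reads in ObF1 1,3BD.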
